A study of Mus musculus with 4 samples.

Results

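The genes described here are 10 regulators that cortical progenitors are known to use to time their work: the RNA-binding proteins Lin28a and Lin28b, the chromatin proteins Hmga1 and Hmga2, the RNA-binding proteins Igf2bp1, Igf2bp2 and Igf2bp3, and the core subunits Ezh2, Eed and Suz12 of Polycomb repressive complex 2 (PRC2). They were taken by name. Of the 10, 9 had a row in both deposited tables, among 23328 genes with a row in either, and all 9 had enough counts to be tested, among 16371 genes tested in all. Lin28a had no row in either table and its level was not analysed here.

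The cerebral cortex of C57BL/6 mice was dissected at embryonic day 16 (E16) and its RNA sequenced, in 2 libraries with a knockout of Cd93 (KO 5 and KO 6) and 2 wild-type libraries (WT 1 and WT 4). Cd93 encodes a transmembrane receptor known mainly from endothelial cells, and how the allele was made is not given in the sources used here. Whether the libraries are separate embryos is not in the labels, and the series text speaks of triplicates, so a p-value here measures the spread between these 4 libraries only. One deposited table holds KO 6 with WT 1 and the other KO 5 with WT 4.

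As background, LIN28 proteins bind precursors of the let-7 microRNAs and block their maturation, and let-7 in turn represses the messages of Lin28, Hmga2 and the Igf2bp genes. LIN28B, HMGA2 and IGF2BP1 are known as proteins of early, expanding progenitors in the mouse forebrain, and their levels fall as development goes on. PRC2 places the repressive methyl mark on lysine 27 of histone H3, and in the mouse cortex its subunits are known to influence when progenitors stop making neurons and start making astrocytes.

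The sequences behind the let-7 circuit come first. Each mature let-7 microRNA shares a seed, bases 2 to 8, which is in capitals below (RefSeq, GRCm38.p6), and 11 mature names of mouse carry it. The 4 shown are the namesake let-7a, the let-7b and let-7c made from the hairpin genes with counts here, and a let-7 with a different 3′ end.
let-7a-5p: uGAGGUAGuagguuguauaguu
let-7b-5p: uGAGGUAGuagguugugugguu
let-7c-5p: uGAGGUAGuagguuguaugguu
let-7i-5p: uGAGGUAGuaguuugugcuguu

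The complement of that seed in a message is CTACCTC, searched on the sense strand of the longest 3′ UTR of each gene in GENCODE M21 (GRCm38). It occurred 4 times each in Lin28b, Hmga2 and Igf2bp1, 2 times in Lin28a, and 1 time each in Hmga1, Igf2bp2, Igf2bp3 and Ezh2. No match was found in Eed or Suz12. Of all 20920 3′ UTRs, 9.06% hold at least 1 match. Among 3′ UTRs of like length, 0.123% (3 of 2438) hold at least as many as Hmga2 and 0.295% (4 of 1357) as many as Lin28b. For Igf2bp1 the share is 0.331% (2 of 604) and for Lin28a 2.06% (54 of 2625). The member itself is counted in each share, here and in the next sentence. The single match of the others is more common at their length: 3.02% of such 3′ UTRs hold at least as many as Ezh2, 8.25% as many as Hmga1, 12.1% as many as Igf2bp2 and 13.3% as many as Igf2bp3. A match is a stretch of letters and not a measured site. The matches of Hmga2, the most per kilobase among members with more than 1, are shown with the first match of Lin28b, Igf2bp1 and Ezh2, the match in capitals.
Hmga2 match 1, chr10:120364224-120364246, minus strand: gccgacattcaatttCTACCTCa
Hmga2 match 2, chr10:120362987-120363009, minus strand: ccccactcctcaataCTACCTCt
Hmga2 match 3, chr10:120362549-120362571, minus strand: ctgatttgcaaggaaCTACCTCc
Hmga2 match 4, chr10:120361691-120361713, minus strand: aatcaaaacacactaCTACCTCt
Lin28b match 1, chr10:45381022-45381044, minus strand: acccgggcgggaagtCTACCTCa
Igf2bp1 match 1, chr11:95961778-95961800, minus strand: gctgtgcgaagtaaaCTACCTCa
Ezh2 match 1, chr6:47530527-47530540, minus strand: catctaCTACCTCt

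The libraries were alike in depth, from 16318317 counts in KO 6 to 17586157 in WT 1, and 10 of 10 cortical neuron markers were tested, with summed levels of 8209 and 7879 CPM (counts scaled to a common library size) in KO 5 and KO 6 and 7187 and 8379 CPM in WT 1 and WT 4. Cd93 had 111 and 99 counts in KO 5 and KO 6, against 680 and 409 in WT 1 and WT 4, an order that follows the labels. WT 1 stood apart in markers of tissue next to the cortex, and also in endothelial and macrophage markers. The 11 meninges and fibroblast markers summed to 57.7 and 124 CPM in KO 5 and KO 6, against 807 CPM in WT 1 and 119 CPM in WT 4. The 13 ganglionic eminence markers with rows in both tables summed to 348 and 508 CPM in KO 5 and KO 6, against 939 CPM in WT 1 and 498 CPM in WT 4. Endothelial markers summed to 161 and 158 CPM in KO 5 and KO 6, against 264 CPM in WT 1 and 149 CPM in WT 4. For microglia and macrophage markers the sums were 48.1 and 51.7 CPM in KO 5 and KO 6, against 101 CPM in WT 1 and 51.9 CPM in WT 4. In RNA from whole tissue, fewer cells of a type and less RNA per cell cannot be told apart.

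None of the 9 measured members passed the test of KO against WT. The quasi-likelihood test of edgeR, adjusted by Benjamini-Hochberg over all genes, called 0 of 9, with an adjusted p of 0.9999 for each, beside a background of 2 of 16371 genes called (0.0122%). At an unadjusted p under 0.05 it held 0 of 9 members, beside 317 of all genes (1.94%). DESeq2 and limma-voom also called 0 of 9. A fit by edgeR that takes the deposited table as a block called 0 of 9 as well, beside 29 of all genes (0.177%). At an unadjusted p under 0.05 the blocked fit held 1 of 9, Hmga1, beside 653 of all genes (3.99%), and the fit without KO 5 also held Hmga1 alone, beside 401 of all genes (2.34%). Of the 9, 2 had a log2 fold change above 0 and 7 below, with a median of -0.05 (range -0.37 to 0.24), where all tested genes had a median of -0.003 and 49.0% above 0. Both KO libraries lay above both WT libraries for 1 of 9 members, Hmga1, beside 11.5% of all tested genes. They lay below for 0 of 9, beside 11.9%. Cd93 itself, at a log2 fold change of -2.32 (SE 0.25), was not called by edgeR (adjusted p 0.211) or limma-voom (adjusted p 0.9998). DESeq2 (adjusted p 3.91e-12) and the blocked edgeR fit (adjusted p 0.000971) did call it. A member that was not called is therefore not shown to be unchanged.

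**Figure D1:**
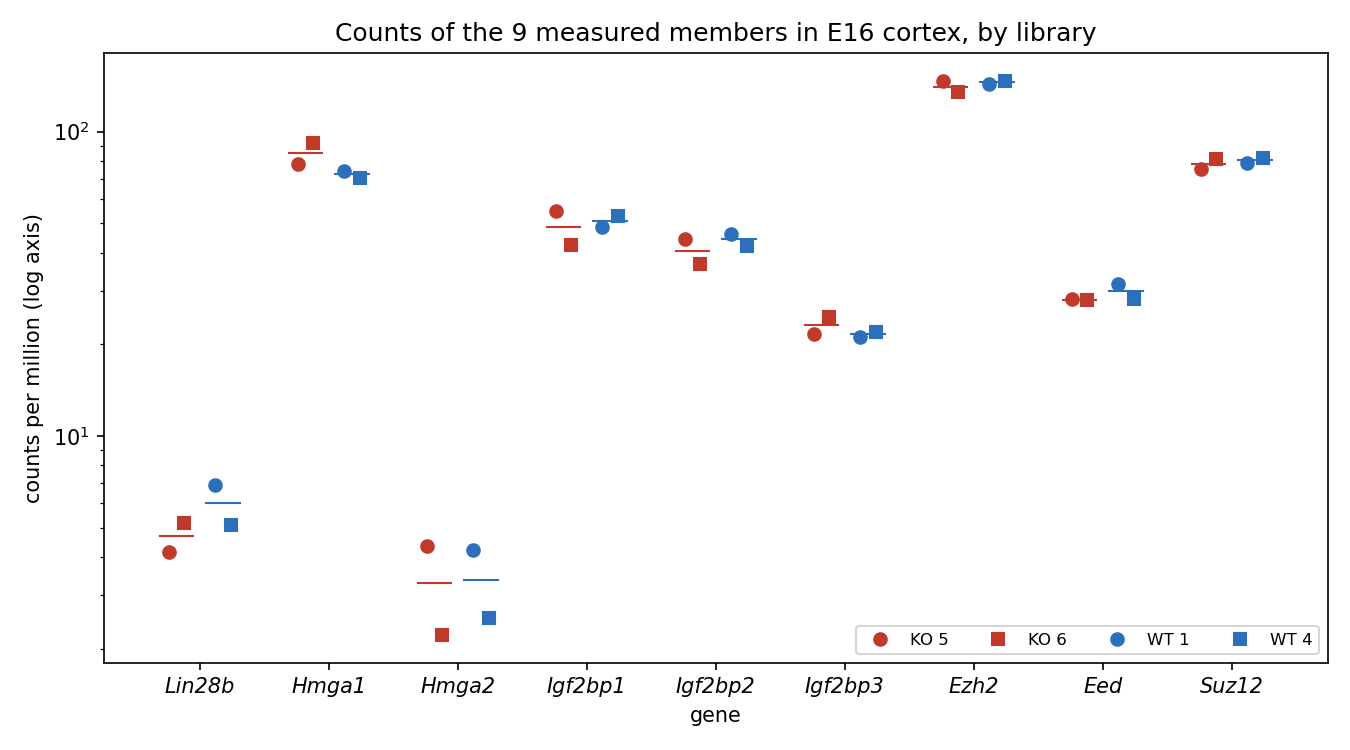
Levels in CPM (log axis) of the 9 measured members in each library, with KO 5 and KO 6 in red left of WT 1 and WT 4 in blue, and a line at the mean of each genotype. Hmga1 alone has both KO points above both WT points, from a count that is uncertain because of shared sequence, and Hmga2 has the widest spread within a genotype.

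Lin28b, the let-7 blocking protein (ENSMUSG00000063804, chromosome 10, 45376620 to 45486395, minus strand), was near the bottom of the set in level. It had 73 counts in KO 5 and 84 in KO 6, against 123 in WT 1 and 87 in WT 4. WT 1 was the highest library, while KO 6 lay just above WT 4 after scaling for depth, so the genotypes overlapped. The level was 4.67 ± 0.714 CPM in KO and 6.02 ± 1.28 CPM in WT (SD, n = 2 each). The log2 fold change of -0.37 (SE 0.28) had a 95% interval of 0.485-fold to 1.24-fold. It was -0.41 for KO 6 over WT 1 and -0.29 for KO 5 over WT 4, so both deposited tables lay below 0. Without WT 1, the library with the most meningeal and ganglionic eminence counts, it was -0.13, and whether those tissues had a part in the Lin28b count was not tested. Counting error alone is wide at this depth: the 95% Poisson interval was 3.27 to 5.24 CPM in KO 5 and 4.13 to 6.41 CPM in KO 6, against 5.75 to 8.26 CPM in WT 1 and 4.09 to 6.30 CPM in WT 4.

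Hmga2, an architectural chromatin protein of young progenitors (ENSMUSG00000056758, chromosome 10, 120361275 to 120476469, minus strand), went opposite ways in the deposited tables. It had 76 counts in KO 5 and 36 in KO 6, against 75 in WT 1 and 43 in WT 4. The high libraries were KO 5 and WT 1 and the low ones KO 6 and WT 4, so each genotype held a high and a low library. The level was 3.28 ± 1.50 CPM in KO and 3.37 ± 1.20 CPM in WT (SD, n = 2 each), and the log2 fold change was -0.04 (SE 0.43) with a 95% interval of 0.475-fold to 2.00-fold. The log2 ratio was -0.89 for KO 6 over WT 1 and 0.75 for KO 5 over WT 4. In the authors' deposited tables these are -0.95 with an adjusted p of 0.00446 and 0.79 with 0.0275, each from 1 library against 1. The authors' deposited tables mark none of the 9 members significant. The libraries of a genotype differed as much, by a log2 ratio of -0.93 for KO 6 over KO 5 and 0.71 for WT 1 over WT 4. Leaving out WT 1 or KO 6 turned the sign, to 0.38 and 0.37.

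Hmga1, the relative of Hmga2 that is abundant in embryonic tissue (ENSMUSG00000046711, chromosome 17, 27556620 to 27563674, plus strand), was the member with the smallest p. It had 1374 counts in KO 5 and 1492 in KO 6, against 1323 in WT 1 and 1197 in WT 4. Both KO libraries lay above both WT libraries, with KO 6 the highest. The level was 85.2 ± 9.57 CPM in KO and 72.4 ± 2.91 CPM in WT (SD, n = 2 each). The log2 fold change was 0.24 (SE 0.11), with a 95% interval of 0.974-fold to 1.42-fold, an unadjusted p of 0.081 and an adjusted p of 0.9999 by edgeR. The log2 ratio was 0.31 for KO 6 over WT 1 and 0.16 for KO 5 over WT 4. In the authors' deposited tables Hmga1 stands at 0.28 with an adjusted p of 3.09e-06 and at 0.17 with 0.028, each from 1 library against 1.

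**Figure D2:**
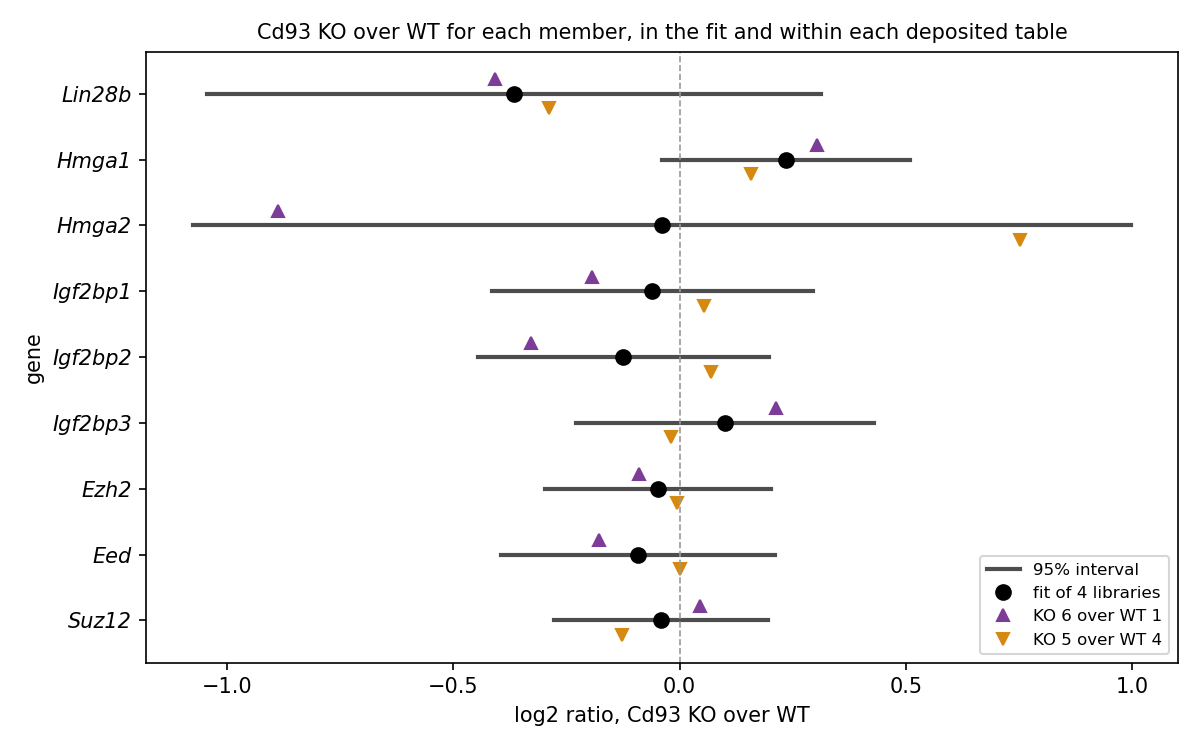
Log2 ratio of KO over WT for each member: the edgeR fit of all 4 libraries with its 95% interval (black), KO 6 over WT 1 (purple) and KO 5 over WT 4 (orange). All 9 intervals contain 0, and the purple and orange points lie on opposite sides of 0 for Hmga2, Igf2bp1, Igf2bp2, Igf2bp3 and Suz12, with the orange point of Eed at 0.

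The Hmga1 count is uncertain. Of the 25-base words in its transcripts, 64.6% also occur in other annotated sequence, against 0.332% to 2.72% for the other measured members, and how the counting divided reads of shared sequence is not given in the sources used here. No direction of Hmga1 is therefore drawn from these values. Without KO 6, the highest library, its log2 fold change was 0.12, and without KO 5 it was 0.35.

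By the rule of smallest summed squared difference of centred log2 CPM over the 4 libraries, the genes with the pattern most like Hmga1 were Scn3b, a sodium channel subunit gene, Rdh13, a retinol dehydrogenase gene, and Tgfbr3l. Scn3b had 3001 counts in KO 5 and 3226 in KO 6, against 2943 in WT 1 and 2640 in WT 4, with a log2 fold change of 0.21. With 4 libraries many genes share a pattern, and 70 had a summed squared difference under 0.01.

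The 3 Igf2bp genes, which encode proteins that bind, localise and stabilise messages such as those of Igf2 and beta-actin, gave small differences. Igf2bp1 (ENSMUSG00000013415, chromosome 11, 95957163 to 96005940, minus strand) had 961 counts in KO 5 and 688 in KO 6, against 863 in WT 1 and 900 in WT 4. KO 5 was the highest and KO 6 the lowest library, so the WT libraries lay between the KO libraries. Its level was 48.6 ± 8.81 CPM in KO and 50.7 ± 3.05 CPM in WT (SD, n = 2 each), and the log2 fold change was -0.06 (SE 0.15, 95% interval 0.750-fold to 1.23-fold). The authors' deposited table of KO 6 and WT 1 gives -0.22 with an adjusted p of 0.0136, and that of KO 5 and WT 4 gives 0.06 with 0.522.

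Igf2bp2 (ENSMUSG00000033581, chromosome 16, 22059009 to 22163299, minus strand) had 777 counts in KO 5 and 596 in KO 6, against 821 in WT 1 and 719 in WT 4. KO 6 was the lowest and the genotypes overlapped, at 40.5 ± 5.39 CPM in KO and 44.2 ± 2.80 CPM in WT (SD, n = 2 each). The log2 fold change was -0.12 (SE 0.13, 95% interval 0.734-fold to 1.15-fold), with -0.33 for KO 6 over WT 1 and 0.07 for KO 5 over WT 4. The authors' deposited table of KO 6 and WT 1 gives -0.35 with an adjusted p of 4.64e-05, and that of KO 5 and WT 4 gives 0.08 with 0.476.

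Igf2bp3 (ENSMUSG00000029814, chromosome 6, 49085223 to 49214957, minus strand) was the steadiest of the Igf2bp genes in WT, with 380 counts in KO 5 and 398 in KO 6, against 376 in WT 1 and 374 in WT 4. Scaled for depth, KO 5 lay between the WT libraries, so the genotypes overlapped. Its level was 23.1 ± 2.01 CPM in KO and 21.6 ± 0.576 CPM in WT (SD, n = 2 each), and the log2 fold change was 0.10 (SE 0.14, 95% interval 0.853-fold to 1.35-fold). Of its 8159 exon bases, 1529 are shared with exons of Malsu1 on the other strand. No source used here says whether strand was counted, so reads within those shared bases cannot be told apart.

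Messages that IGF2BP proteins are known to bind gave no call. Of 8 listed, 7 were tested, 3 had a log2 fold change above 0 and 4 below, 0 passed, and the median was -0.02. Among them H19, the imprinted noncoding RNA next to Igf2, had 284 and 496 counts in KO 5 and KO 6, against 2296 and 568 in WT 1 and WT 4. Igf2, the growth factor gene, had 452 and 1000 counts in KO 5 and KO 6, against 5585 and 812 in WT 1 and WT 4. For both, WT 1 was far above the other libraries, and for Igf2 the genotypes overlapped. Their log2 fold changes were -1.80 (SE 0.61) and -2.05 (SE 0.82), neither called in the fit of 4 libraries. Once the deposited table was a block edgeR called both, H19 at -1.59 with an adjusted p of 0.00819 and Igf2 at -1.65 with 0.0343, while without WT 1 they were at -0.51 and -0.13 and not called. WT 1 is also the library with 807 CPM of meningeal markers, a list that itself holds Igf2, and the part of those cells in these values was not tested.

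The PRC2 genes differed little between the genotypes. Ezh2, the main histone methyltransferase of dividing cells (ENSMUSG00000029687, chromosome 6, 47530139 to 47595341, minus strand), had 2566 counts in KO 5 and 2187 in KO 6, against 2551 in WT 1 and 2503 in WT 4. KO 6 was somewhat below the others, and KO 5 lay between the WT libraries in CPM. Its level was 141 ± 8.26 CPM in KO and 145 ± 2.48 CPM in WT (SD, n = 2 each), and the log2 fold change was -0.05 (SE 0.10, 95% interval 0.814-fold to 1.15-fold). In the authors' deposited tables Ezh2 is at -0.11 with an adjusted p of 0.0266 for KO 6 and WT 1, and at 0.003 with 0.804 for KO 5 and WT 4.

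Eed, the subunit that reads the histone mark (ENSMUSG00000030619, chromosome 7, 89954654 to 89980983, minus strand), had 492 counts in KO 5 and 454 in KO 6, against 563 in WT 1 and 478 in WT 4. KO 5 and WT 4 were level in CPM and WT 1 was the highest. Its level was 28.04 ± 0.073 CPM in KO and 29.9 ± 2.54 CPM in WT (SD, n = 2 each), and the log2 fold change was -0.09 (SE 0.13, 95% interval 0.761-fold to 1.16-fold). Its exons share 261 bases with E230029C05Rik on the other strand, which had 86 and 35 counts in KO 5 and KO 6 and 35 and 63 in WT 1 and WT 4.

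Suz12, the scaffold of the complex (ENSMUSG00000017548, chromosome 11, 79993106 to 80034123, plus strand), had 1317 counts in KO 5 and 1316 in KO 6, against 1398 in WT 1 and 1398 in WT 4. Scaled for depth, KO 5 was the lowest, and KO 6 lay between the WT libraries. Its level was 78.2 ± 4.20 CPM in KO and 80.4 ± 2.45 CPM in WT (SD, n = 2 each), and the log2 fold change was -0.04 (SE 0.10, 95% interval 0.826-fold to 1.15-fold). The intervals of the 3 PRC2 members lay within 0.761-fold and 1.16-fold, which a missed threshold does not turn into equality.

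Compared between genes on the scale of CPM per kilobase of exon, the levels of the members spanned a wide range. Averaged over the 4 libraries, Hmga1 stood at 37.1, Ezh2 at 21.4, Suz12 at 16.03 and Eed at 7.56 CPM per kb. Igf2bp2 followed at 5.73, Igf2bp1 at 5.13, Igf2bp3 at 2.74, Lin28b at 0.590 and Hmga2 at 0.491 CPM per kb. Igf2bp2 and Igf2bp1 overlapped in range over the libraries, as did Lin28b and Hmga2, and the other neighbours did not. The Hmga1 level carries the uncertainty of its shared sequence. Lin28b and Hmga2 were the lowest of the 9 at E16, while Igf2bp1, also known from early progenitors, stood well above them. Levels at other ages were not measured.

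Within PRC2, the alternative methyltransferase gene Ezh1, known from cells that no longer divide, was far below Ezh2 per kilobase. Ezh1 had 698 counts in KO 5 and 608 in KO 6, against 656 in WT 1 and 606 in WT 4, with both KO libraries above both WT libraries in CPM. Its log2 fold change was 0.09 (SE 0.11), not called by edgeR with an adjusted p of 0.9999. The ratio of Ezh2 to Ezh1 in CPM per kb was 4.10 in KO 5 and 4.01 in KO 6, against 4.33 in WT 1 and 4.60 in WT 4. This ratio is a description and was given no test. The histone-binding subunits Rbbp4 and Rbbp7, shared with other complexes, stood at 29.7 and 42.4 CPM per kb over the 4 libraries, above Suz12 and Eed.

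**Figure D3:**
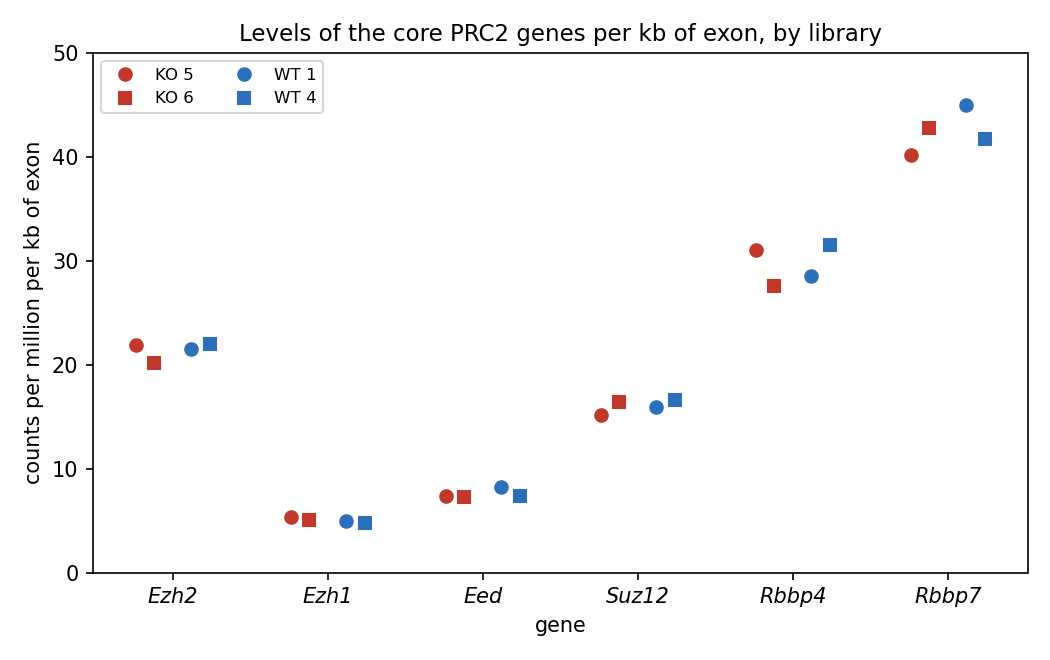
Levels of the PRC2 methyltransferase, core and histone-binding genes in CPM per kb of exon, with KO 5 and KO 6 in red left of WT 1 and WT 4 in blue. Ezh2 lies at 20.2 to 22.02 CPM per kb in the 4 libraries and Ezh1 at 4.78 to 5.36 CPM per kb.

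Genes that work with PRC2 or against it also gave no call. Of 9 PRC2 partners, 4 had a log2 fold change above 0 and 5 below, with a median of -0.03. Jarid2, which helps recruit PRC2, was at 75.0 ± 9.56 CPM in KO and 69.2 ± 5.04 CPM in WT (SD, n = 2 each), and the log2 fold change was 0.12. Epop had 385 counts in KO 5 and 178 in KO 6, against 181 in WT 1 and 265 in WT 4. KO 5 was the highest and WT 4 the next, the libraries of one deposited table. Of 19 subunits of Polycomb repressive complex 1, which compacts chromatin and ubiquitinates histone H2A, 10 were above 0 and 9 below, with a median of 0.01.

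Among these PRC1 genes Cbx7, a chromodomain protein that reads the PRC2 mark, had the smallest p. It had 280 counts in KO 5 and 223 in KO 6, against 207 in WT 1 and 191 in WT 4. The log2 fold change, 0.38 (SE 0.18), was not called. Both KO libraries lay above both WT libraries for Cbx7. Of 8 tested genes of the opposing H3K27 demethylases and Trithorax methyltransferases, 4 were above 0 and 4 below, with a median of -0.01 and a range of -0.09 to 0.05.

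Genes that Polycomb is known to silence mostly had few or no counts. Of 39 Hox genes, 1 had a row in a deposited table, with 3 counts in all. Of 14 other known Polycomb targets, 8 had rows in both tables and 3 had enough counts to be tested, 1 above 0 and 2 below, with a median of -0.16 and 0 called. Leaving out any 1 library put this median above 0, from 0.04 (without KO 5) to 0.19 (without WT 4). Bmp4, for example, had 1 and 3 counts in KO 5 and KO 6, against 23 and 3 in WT 1 and WT 4. The highest count was in WT 1, the library with the highest meningeal marker sum.

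For the let-7 side of the circuit, the deposited counts hold long RNA and do not measure mature microRNAs. Of 17 let-7 host and hairpin genes, 6 had rows in both tables and 5 were tested, 1 above 0 and 4 below, with a median of -0.05. The hairpin gene Mirlet7b had 10 and 26 counts in KO 5 and KO 6, against 57 and 9 in WT 1 and WT 4, with WT 1 high and the genotypes overlapping. Mirlet7c-2 had 19 and 21, against 46 and 23, and its log2 fold change of -0.73 (SE 0.44) was not called. Mir99ahg, a host of Mirlet7c-1, had 690 and 608, against 593 and 531. With a log2 fold change at 0.25 (SE 0.12) it was not called.

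Genes that mature or degrade let-7 lay close to 0. Of 13 tested, 12 had a log2 fold change above 0 and 1 below, with a median of 0.04 and a range of -0.08 to 0.10, and 6 were above 0 and 1 below in both deposited tables. With 1 library left out, the median ran from 0.004 (without WT 1) to 0.07 (without KO 6). Zcchc6, a terminal uridylyltransferase gene whose enzyme tails let-7 precursors, was at 57.5 ± 1.53 CPM in KO and 53.8 ± 2.05 CPM in WT (SD, n = 2 each). edgeR put its log2 fold change at 0.10 (SE 0.10) and did not call it.

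Other genes known as let-7 targets had a median of -0.04, with 6 above 0, 11 below and 0 called of 17. Ccnd2, a D-type cyclin gene, had 5067 and 4234 counts in KO 5 and KO 6, against 7084 and 4886 in WT 1 and WT 4, with WT 1 alone high. Cdk6, the gene of its partner kinase, had 1187 and 826, against 1214 and 1206, with both KO libraries below both WT libraries in CPM. KO 5 was only just below, at 67.8 CPM against 68.3 CPM in WT 1, while KO 6 was at 50.9 CPM. Nr6a1 went the other way, with 138 and 129, against 117 and 101, and both KO libraries above both WT libraries. Its log2 fold change was 0.34 (SE 0.22). Both KO libraries lay below both WT libraries for 4 of the 17, beside 11.9% of all tested genes, and above for 1, beside 11.5%. A wider count took the tested genes with a 3′ UTR in the search and left out the members. With at least 1 match to the let-7 seed, the median log2 fold change was -0.004 over 1450 genes, with 48.3% above 0. It was also -0.004 over 12093 genes with no match, with 48.6% above 0. The 179 genes with at least 2 matches had a median of -0.01, with 44.1% above 0.

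The processes that the members are known to time were read from further lists. Of 11 progenitor markers, 5 were above 0 and 6 below, with a median of -0.02 and 0 called. Hopx, a homeobox gene of radial glia, had 226 counts in KO 5 and 217 in KO 6, against 124 in WT 1 and 201 in WT 4, and the log2 fold change was 0.48 (SE 0.27). Its KO libraries lay above its WT libraries, with WT 1 alone far down. A list on the change from neurons to glia held timing factors and also the astrocyte genes Gfap and Aldh1l1. Of its 16 tested genes, 9 were above 0 and 7 below, with a median of 0.01 and 0 called. Zfp503, a zinc finger gene and the one of smallest p in this list, had 43 and 77 counts in KO 5 and KO 6, against 517 and 122 in WT 1 and WT 4. Both KO libraries lay below both WT libraries, with WT 1 far above the rest. Its log2 fold change of -2.34 (SE 0.66) was not called by edgeR, at an adjusted p of 0.9999. The blocked fit did call Zfp503 (log2 fold change -2.14, adjusted p 0.0106). It was also called without WT 4, at -3.01 with an adjusted p of 1.74e-08, while without WT 1 it was at -0.996 and not called. Gfap, which encodes an astrocyte filament protein, had 75 and 89 counts in KO 5 and KO 6, against 20 and 53 in WT 1 and WT 4. Both KO libraries lay above both WT libraries, and the log2 fold change of 1.20 (SE 0.48) was not called.

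All 13 cell cycle markers were below 0, with a median of -0.16 and 0 called, and 1 of the 13 was below 0 in both deposited tables. The cell cycle median was -0.44 for KO 6 over WT 1 and 0.08 for KO 5 over WT 4, and it was 0.01 without KO 6. Of the members below 0 with 4 libraries, Hmga2, Igf2bp1, Igf2bp2 and Ezh2 were above 0 without KO 6, at 0.37, 0.12, 0.01 and 0.02. Lin28b, Eed and Suz12 stayed below 0 without KO 6, at -0.52, -0.08 and -0.09. The part of the cell cycle in these values was not tested.

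**Figure D4:**
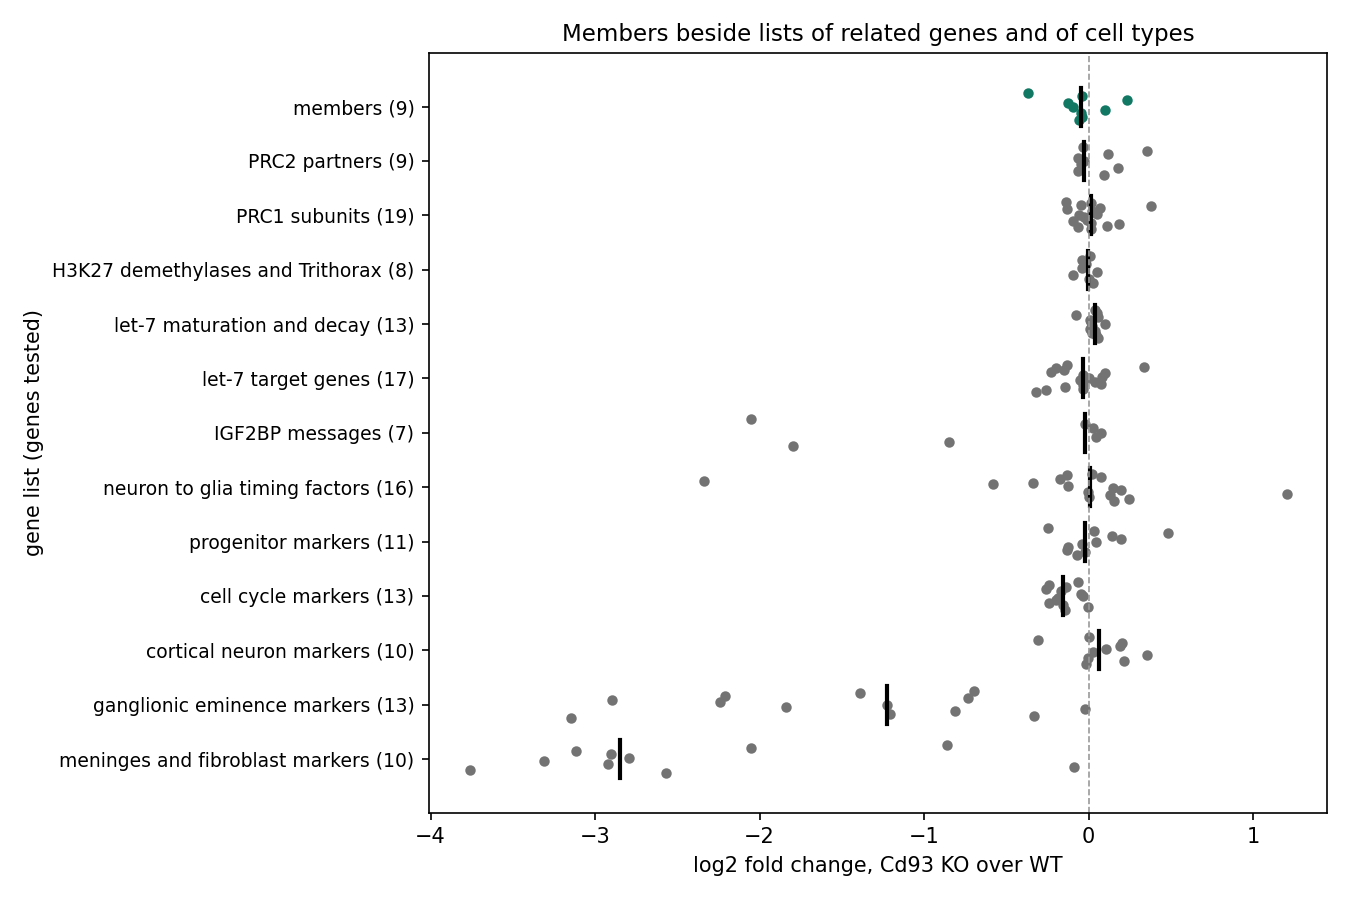
Log2 fold change of KO over WT (edgeR, 4 libraries) of each tested gene in the members (green) and in 12 lists of related genes and cell types (grey), with a black line at each median and the number of genes tested in brackets. The members, PRC2, PRC1, let-7 maturation and let-7 target lists have medians close to 0, while the ganglionic eminence and meninges lists have medians of -1.22 and -2.85. The let-7 host, endothelial and microglial lists are among those not shown.

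Markers of neighbouring tissues had larger log2 fold changes than the members in the same fit. The ganglionic eminence list had a median of -1.22 over 13 genes, all below 0, and the meninges list -2.85 over 10 genes, all below 0, with 0 called in each. The blocked fit called 9 of these 13 and 7 of these 10, and 0 of the 9 members. Without WT 1 these medians were -0.44 and -0.46, and the median of the members was -0.06, against -0.05 with all libraries. None of the markers of these 2 lists with rows in both tables was at 0 counts in any library.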

How the data were processed

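The authors deposited 2 tables of whole read counts per gene, each with 1 KO and 1 WT library. Per the submitters' processing notes, mm9, HTSeq 0.6.0, TopHat2 2.0.12 and Bowtie2 2.2.3 were used, and the strand setting is not given in the sources used here. Gene positions in the deposited tables match GENCODE M21 (GRCm38) in 92.2% of genes and are printed as deposited. The authors' deposited log2 fold change and adjusted p-value compare 1 library with 1, per the file headers, and are printed only where named as the authors'. A listed gene had at least 2 counts over the libraries of its table.

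Genes in both tables (20385) were joined and filtered with filterByExpr, and KO was compared with WT by edgeR 4.0.16 (R 4.3.3): TMM scaling, quasi-likelihood test, two-sided, Benjamini-Hochberg adjustment over all 16371 genes, called at an adjusted p under 0.05. Depth was 16318317 to 17586157 counts per library. Log2 ratios within a table use a prior count of 2. Exons of Hmga1, Hmga2, Igf2bp1, Ezh2, Eed and Suz12 share up to 261 bases, and those of Igf2bp3 share 1529, with another annotated gene. Poisson intervals cover counting error only. CPM per kb divides by the union of exons in GENCODE M21. Alternatives were DESeq2 1.42.0, limma-voom 3.58.1, other scalings, no filter, the deposited table as a block and leaving out each library. The members and the 18 other gene lists were chosen with earlier results of these data known. The genes named are all members, up to 3 of smallest p per list, genes whose exons overlap a member's, and those most like Hmga1. Rbbp4, Rbbp7 and Bmp4 fall outside that rule and were chosen after their values were seen. Some results that bear on shared sequence and on Polycomb targets are not reported here.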

Additional observations from a re-analysis of the deposited data

How the results depend on the processing

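No member was called under any of the 10 alternatives: of 90 member values, 83 kept their sign and 7 turned it, with adjusted p of 0.9217 to 1. With 1 library left out, log2 fold changes that turned sign ran from -0.60 (without KO 5) to 0.38 (without WT 1) for Hmga2, also at 0.37 without KO 6; from -0.26 to 0.12 (without KO 5 and KO 6) for Igf2bp1, also above 0 without WT 4, at 0.009; from -0.27 to 0.0090 for Igf2bp2 and -0.11 to 0.016 for Ezh2, likewise; and from -0.092 (without KO 6) to 0.014 (without KO 5) for Suz12. Over all genes, 2 were called, against 8 by DESeq2, 29 with the deposited table as a block, and 5 to 312 without 1 library. The cause was not tested. The KO and WT libraries share no replicate number, and the block pairs them only by deposited table, KO 6 with WT 1 and KO 5 with WT 4. With 2 libraries a genotype, the interval of every measured member spans changes in either direction. The widest are those of Lin28b and Hmga2, the members with the fewest counts.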

Other observations

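Beside the members, the list on the change from neurons to glia held Aldh1l1, an astrocyte enzyme gene. Aldh1l1 had 316 and 364 counts in KO 5 and KO 6, against 746 and 315 in WT 1 and WT 4. WT 1 alone was high, and the log2 fold change of -0.58 (SE 0.36) was not called by edgeR. Bcl11b, a transcription factor gene of deep-layer neurons, had 4128 and 3405, against 5042 and 4569, with both KO libraries below both WT libraries and a log2 fold change of -0.31 (SE 0.11), not called. The 10 cortical neuron markers had a median of 0.07, with 7 above 0. Endothelial markers had a median of -0.42, with 9 of 10 below 0, microglia and macrophage markers -0.52, with 10 of 10 below 0, and fetal red cell markers 0.09, with 3 of 9 below 0. None of these markers was called, and without WT 1 the endothelial and microglial medians were 0.05 and -0.05.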
